A study of Mus musculus with 495 samples.

Results

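Ins1, Ins2 and Iapp are the 3 genes described here, of 23002 in the count table. They were chosen by name, with earlier results of these data known. They were followed in 495 single cells of the embryonic mouse pancreas, each in its own well of 7 plates and sequenced with Smart-Seq2, a full-length method that does not tag single molecules. At E17.5, plates EA06 (57 cells) and EA07 (72 cells) had the plate code Neurog3-cre and the genotype Neurog3-Cre, Rosa-mTmG, in which Cre under Neurog3 control marks cells through a membrane reporter; the count table's column names carry Ngn3.ki for these plates as for all others, so the labels and the table differ on the genotype, and the labels are followed here. At E15.5 all plates had the genotype Neurog3-eGFP, a knock-in of the fluorescent protein at Neurog3: EA02 (72 cells) and EA05 (85 cells) carried the code endocrine, EA01 (73 cells) and EA03 (70 cells) the code Neurog3, and EA04 (66 cells) the code duct. The labels name no animal, litter or sex, so each plate is 1 sample, no p-value is given, and intervals cover at most the counting of reads or cells.

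Mice carry 2 insulin genes. Ins2 is the ancestral gene, and Ins1 arose from it by retroposition and lacks its second intron; both proinsulins are cut by the same proteases and stored in the same granule. Iapp encodes amylin, a peptide hormone made and released with insulin by beta cells and also found in some delta cells. In the embryo, endocrine cells arise from progenitors that briefly express the transcription factor Neurog3, then pass a stage marked by Fev, and later make insulin, glucagon (Gcg), somatostatin (Sst), ghrelin (Ghrl) or pancreatic polypeptide (Ppy).

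In GRCm38 (GENCODE M21), Ins1 lies at chr19:52264297-52265476 on the plus strand with 2 exons, Ins2 at chr7:142678659-142679726 on the minus strand with 3 exons, and Iapp at chr6:142298423-142303961 on the plus strand with 3 exons. The coding sequences of Ins1 (327 bases) and Ins2 (333 bases) were identical at 302 of 327 aligned bases, or 92.4%, with 25 differing bases and a longest identical run of 56 bases. The first 150 coding bases are shown because these genes are near-copies and the ratio of their reads rests on the bases that differ, which are in capitals (14 in each). The stretch of Ins1 is chr19:52264624-52264773 and that of Ins2 is chr7:142679384-142679533, both within exons and in the direction of the gene.
Ins1: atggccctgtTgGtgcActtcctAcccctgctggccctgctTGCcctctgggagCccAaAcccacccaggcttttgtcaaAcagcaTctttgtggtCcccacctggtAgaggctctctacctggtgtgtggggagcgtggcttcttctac
Ins2: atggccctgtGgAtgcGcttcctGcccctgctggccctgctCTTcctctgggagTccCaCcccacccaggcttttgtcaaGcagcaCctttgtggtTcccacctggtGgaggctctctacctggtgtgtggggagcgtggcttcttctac
Of the windows of 50 bases along each coding sequence, 97.5% in Ins1 and 97.5% in Ins2 occurred in no other annotated transcript, and at 100 bases all windows were unique. The read length is not given in the sources used here, so a small share of reads could have been placed on either gene or dropped.

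The 250 bases before the gene start are shown for Ins1 (chr19:52264047-52264296) and Iapp (chr6:142298175-142298424), both on the plus strand and taken from RefSeq on GRCm38.p6, because both genes were followed over the same cells and are made by the same cell type. Capitals mark TAAT (ATTA on the other strand), the core read by homeodomain factors such as Pdx1, and CANNTG, the core read by basic helix-loop-helix factors such as Neurod1.
Ins1 upstream: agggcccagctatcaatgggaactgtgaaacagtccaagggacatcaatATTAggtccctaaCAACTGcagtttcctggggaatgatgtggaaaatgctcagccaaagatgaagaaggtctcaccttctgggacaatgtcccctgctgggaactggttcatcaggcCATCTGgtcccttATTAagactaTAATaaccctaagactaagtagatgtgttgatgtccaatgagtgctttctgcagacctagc
Iapp upstream: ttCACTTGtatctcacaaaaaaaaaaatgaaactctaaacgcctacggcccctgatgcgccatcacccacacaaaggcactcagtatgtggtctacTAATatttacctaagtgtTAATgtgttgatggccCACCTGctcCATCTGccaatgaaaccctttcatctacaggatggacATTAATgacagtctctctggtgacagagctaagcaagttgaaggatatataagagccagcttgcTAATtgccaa
The Ins1 window held 3 TAAT and 2 CANNTG matches, and the Iapp window 5 TAAT matches, of which 2 overlap, and 3 CANNTG matches. Over 32851 promoters of the same length, 54.9% held at least 1 TAAT and 66.2% at least 1 CANNTG. As many TAAT matches as Ins1 were found in 17.3% of promoters and as many as Iapp in 5.54%. As many CANNTG matches as Ins1 were found in 31.8% and as many as Iapp in 12.2%.

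Totals ran between 200152 and 1182889 counts per cell, with 1237 to 6047 genes read. Rn45s, a ribosomal precursor RNA, took 8.83% to 10.3% of counts on EA05 to EA07 and 20.6% to 23% on EA01 to EA04. The plates thus fell into 2 sets by this share, and both E17.5 plates lie in the set with the lower share. What sets these plates apart was not tested. On the plate coded duct, 43 of 66 cells held 10000 CPM (counts per 1000000 counts of the cell or group) or more of 10 acinar marker genes summed, so its label did not describe most of its cells. On that plate, Ins1 and Iapp had 0 counts among 29154048, which allows up to 0.103 CPM, and Ins2 had 23 counts, all in 1 cell at 39.8 CPM.

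Well rows D and H of EA01, EA02 and EA03 stood apart for all 3 genes. These rows held 15 cells, of which 11 were insulin-positive (Ins1 plus Ins2 at 1000 CPM or more; 73.3%, exact Clopper-Pearson interval 44.9% to 92.2%), against 18 of 200 cells in the other rows of the same plates (9.0%, 5.42% to 13.9%). In summed counts, Ins2 stood at 50577 CPM in rows D and H against 687 CPM in the other rows of EA01, at 52068 against 1358 CPM on EA02, and at 113225 against 1368 CPM on EA03. The log2 ratio (pseudocount 5 CPM) averaged 6.50 ± 1.19 for Ins1, 5.94 ± 0.60 for Ins2 and 5.10 ± 0.68 for Iapp over the 3 plates (SD, n = 3 plates), while the median of all genes was -0.48 on EA01, -0.65 on EA02 and -1.08 on EA03. All 3 genes were over 2-fold higher in rows D and H on every one of these plates; with the 3 plates summed, 15.1% of 7737 tested genes were 2-fold higher there. Rows D and H also differed in other measures: a median of 272206 counts and 3540 genes per cell against 499590 counts and 2468 genes in the other rows, Neurog3 at 20 CPM or more in 0 of 15 against 128 of 200 cells, and at least 2 hormone classes at 1000 CPM in 8 of 15 against 4 of 200 cells. The labels say nothing of these rows, and what sets them apart was not tested.

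Raw counts and CPM set rows D and H apart to different degrees among the cells richest in insulin. Among cells with 40000 CPM of insulin or more, 10 cells of rows D and H held 8908 to 29103 raw Ins2 counts with a median of 26417, and 19 cells of all other wells and plates held 15723 to 29568 with a median of 23075. The raw counts of these sets overlapped. Total counts did not overlap: 204507 to 369008 in rows D and H against 427838 to 826468 in the others. As CPM, Ins2 in these cells had a median of 108302 in rows D and H and 38079 elsewhere. The cells were picked by CPM, so a cell with fewer total counts passes with fewer raw insulin counts. Among the 19 other cells, only C10 of EA03 and C11 of EA02 came from the plates of rows D and H. They held 518127 and 513534 total counts. All others lie on EA05 to EA07, so this contrast is mostly between plates, unlike the comparison within plates above. The part of total counts in the difference of rows D and H was not tested. Results below keep these rows in, and the values without them stand beside the results on the 3 genes that they move most.

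**Figure D1:**
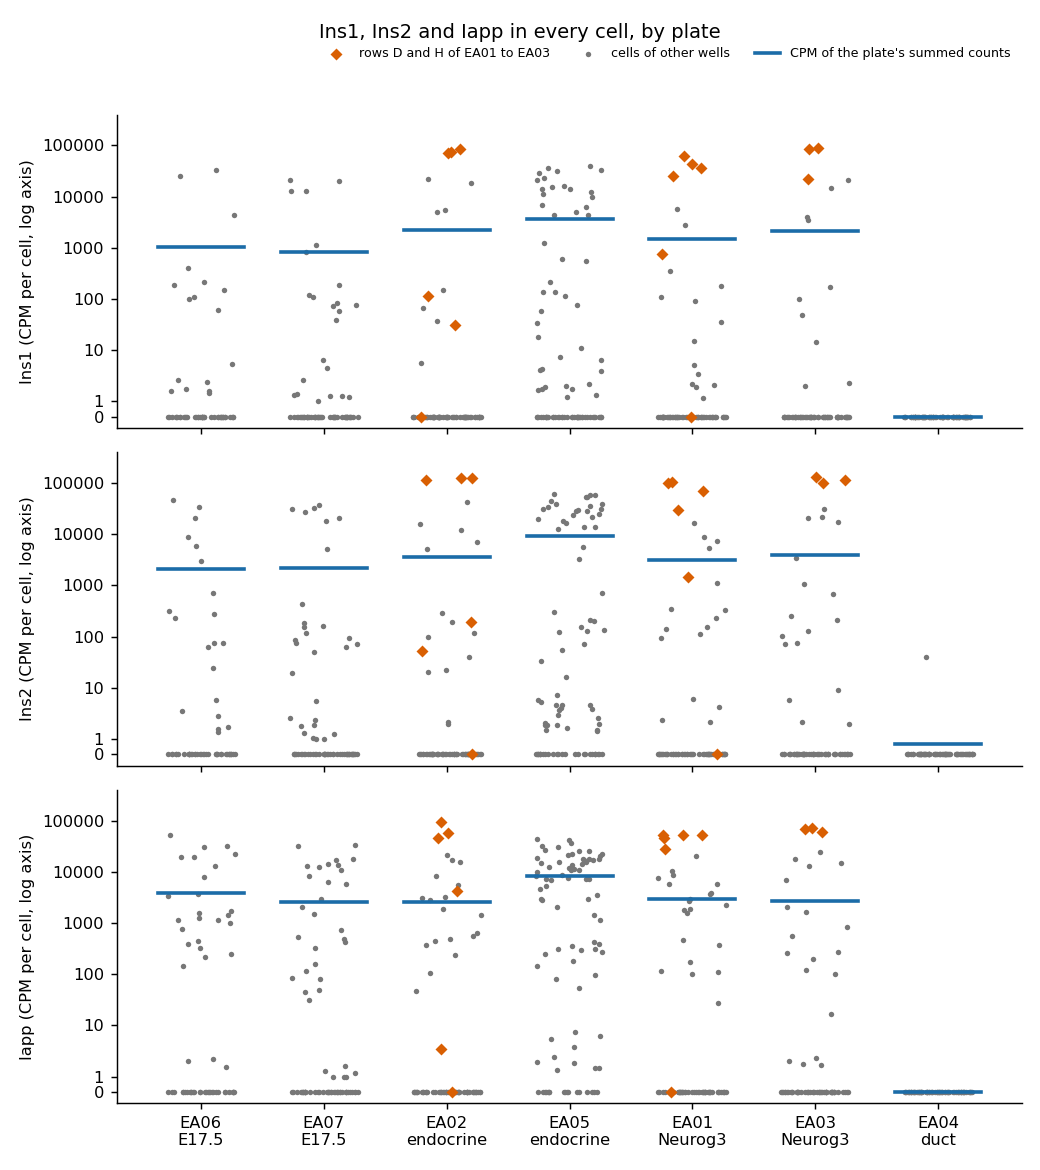
Level of Ins1, Ins2 and Iapp in every cell (CPM, log axis; cells with 0 counts are drawn at 0, and values between 0 and 1 CPM at 1), by plate. Diamonds are cells of rows D and H of EA01 to EA03, points all other cells, and bars the CPM of the plate's summed counts; most cells lie at 0, 11 of the 15 diamonds are insulin-positive and most of these lie above all other cells of their plate, and the duct plate has 1 cell with Ins2.

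Insulin counts spanned all levels between 0 and the highest cells. Of the 429 cells on the 6 plates other than duct, 243 had no insulin count, 53 had less than 20 CPM, 61 had 20 to 1000 CPM, 17 had 1000 to 10000 CPM and 55 had 10000 CPM or more. The 72 cells in the top classes (16.8%, interval 13.4% to 20.7%) are called insulin-positive. They were 7 of 57 cells on EA06 (12.3%) and 8 of 72 on EA07 (11.1%) at E17.5, 8 of 72 on EA02 (11.1%) and 28 of 85 on EA05 (32.9%) of the endocrine code, and 11 of 73 on EA01 (15.1%) and 10 of 70 on EA03 (14.3%) of the Neurog3 code. EA05 thus had the highest share, and its interval of 23.1% to 44% lay above those of EA07 and EA02 (both 4.92% to 20.7%) and overlapped those of EA06 (5.08% to 23.7%), EA01 (7.77% to 25.4%) and EA03 (7.07% to 24.7%). The 18 insulin-positive cells outside rows D and H of EA01 to EA03 were 6, 5 and 7 on EA01, EA02 and EA03. Cells under 1000 CPM are called insulin-negative, also where they hold insulin counts.

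By plate, summed Ins1 stood at 1053 CPM on EA06, 836 on EA07, 2244 on EA02, 3621 on EA05, 1506 on EA01 and 2121 on EA03. Summed Ins2 stood at 2060 CPM on EA06, 2189 on EA07, 3641 on EA02, 9103 on EA05, 3083 on EA01 and 3888 on EA03. Iapp stood at 3812 CPM on EA06, 2513 on EA07, 2557 on EA02, 8192 on EA05, 2964 on EA01 and 2648 on EA03. EA05 was highest for all 3 genes, and the order of the other 5 plates differed between genes. Without rows D and H the levels stood at 134 CPM of Ins1 and 687 of Ins2 on EA01, at 816 and 1358 on EA02, and at 701 and 1368 on EA03, all below EA05. Iapp without these rows stood at 1152 CPM on EA01, 1326 on EA02 and 1190 on EA03, below both E17.5 plates.

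Among cells with low insulin, Ins2 alone was read more often than Ins1 alone. Among the 61 cells with 20 to 1000 CPM (9 to 336 insulin counts, median 79), 23 had Ins2 counts only, 6 had Ins1 counts only and 32 had both. Among the 53 cells under 20 CPM, which held 1 to 5 counts each, 30 had Ins2 only, 12 had Ins1 only and 11 had both. The second class is at the level of single reads, and 25 of its cells lay on EA05 against 2 to 9 on each other plate. In summed counts, insulin-negative cells held 9.65 CPM of Ins1 and 20.2 CPM of Ins2. Insulin-positive cells held 11608 and 25467 CPM, so Ins2 was the larger in both.

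The Ins1 share of insulin, taken within each cell as Ins1 / (Ins1 + Ins2) per coding length, had a median of 32.2% over the 72 insulin-positive cells (order-statistic interval of the median 24.3% to 38.3%). By plate the median was 17.8% on EA06 (7 cells, 0.04% to 49.8%), 29.8% on EA07 (8 cells, 0.03% to 72.9%), 37.8% on EA02 (8 cells, 0% to 58.1%), 28.7% on EA05 (28 cells, 0% to 99.9%), 34.7% on EA01 (11 cells, 0.04% to 100%) and 29.7% on EA03 (10 cells, 0% to 95%). The spread within each plate was far wider than the differences between plates. Ins2 was the more abundant of the pair per coding length in most cells, and 8 of 72 cells had more Ins1 than Ins2. The share depends on the length taken for Ins1, whose annotated end differs between sources: the median was 31.8% with no length, 27.1% with RefSeq exon lengths (601 and 481 bases) and 17.3% with GENCODE M21 transcript lengths (1062 and 478 bases).

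The share was not spread evenly over cells. In 20 of 72 cells (27.8%, interval 17.9% to 39.6%) Ins1 made up less than 5% of insulin, in 44 cells 5% to 50%, and in 8 cells more than 50%, of which 3 had more than 95%. Cells nearly without Ins1 were present on every plate: 3 of 7 on EA06, 3 of 8 on EA07, 1 of 8 on EA02, 7 of 28 on EA05, 3 of 11 on EA01 and 3 of 10 on EA03. Some of them were rich in insulin reads. Cell E9 of EA05 had 91 Ins1 counts beside 27091 Ins2 counts (0.34% Ins1), cell E7 of EA05 had 47 beside 17620 (0.27%), and cell B8 of EA07 had 6 beside 16934 (0.04%). Cell D12 of EA05 had 0 Ins1 counts and 8219 Ins2 counts. The reverse was rarer: cell C11 of EA01 had 847 Ins1 and 0 Ins2 counts, cell G5 of EA05 had 811 and 1, and cell C8 of EA03 had 2110 and 112.

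All 20 cells with an Ins1 share under 5% had less than 40000 CPM of insulin. They were 9 of 17 cells between 1000 and 10000 CPM (52.9%, interval 27.8% to 77%), 6 of 12 between 10000 and 20000 CPM (interval 21.1% to 78.9%) and 5 of 14 between 20000 and 40000 CPM (35.7%, 12.8% to 64.9%). None of the 15 cells between 40000 and 80000 CPM and none of the 14 cells above had such a share (upper ends of the intervals 21.8% and 23.2%). In those classes the share kept to 24.3% to 49.8% (median 34.9%) and 18.6% to 43.7% (median 38.6%). The last class holds 9 cells of rows D and H; the 11 insulin-positive cells of those rows ranged from 18.6% to 46.9% with a median of 38.3%, and without them the median of the other 61 cells was 28.4%. The total insulin that sets these classes contains Ins1 itself, so a cell without Ins1 reads stands lower on that axis for that reason alone.

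**Figure D2:**
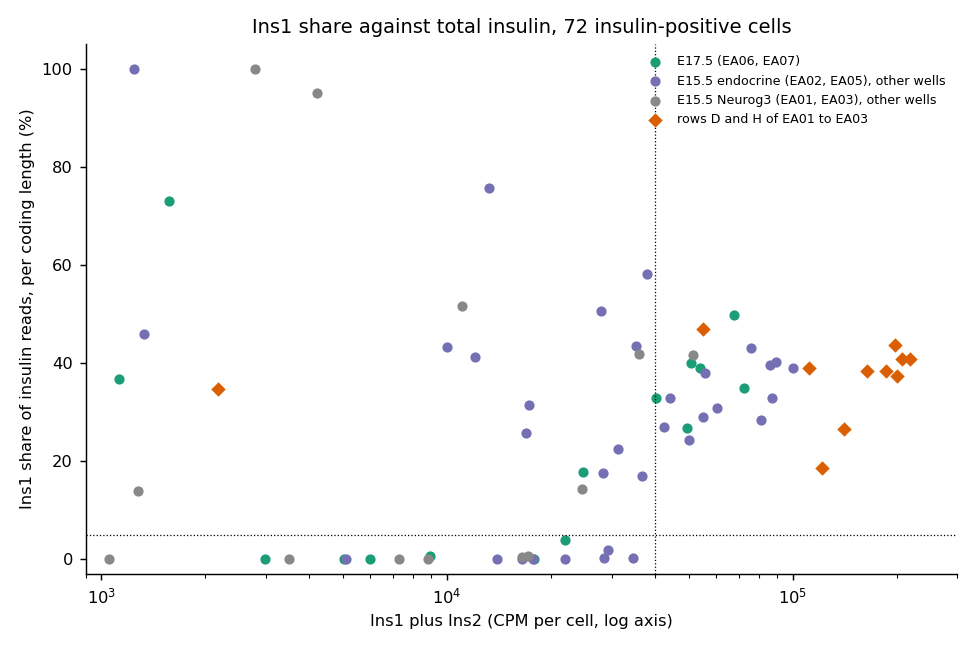
Ins1 share of insulin reads per coding length (%) against Ins1 plus Ins2 (CPM, log axis) in the 72 insulin-positive cells, coloured by plate code, with diamonds for rows D and H. Dotted lines mark 5% and 40000 CPM: the 20 cells under 5% all lie left of 40000 CPM, and the 29 cells right of it lie between 18.6% and 49.8%.

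Iapp stood at like levels in cells with a low and with a balanced Ins1 share. Under 40000 CPM of insulin, the 20 cells with an Ins1 share under 5% had 13798 CPM of Iapp in summed counts, and the 20 cells with a share of 5% to 95% had 13695 CPM (log2 ratio 0.01). This comparison was made after the cells had been seen, and 39.1% of 7784 tested genes were 2-fold apart between these small sets, so the sets allow no finer statement. Acinar markers summed to 2257 against 10.2 CPM in these sets, and to 162 against 10.2 CPM without 1 cell described further on; their part in the Ins1 share was not tested.

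Over the 429 cells, the Spearman correlation of Ins1 with Ins2 was 0.74 and that of Iapp with Ins2 was 0.62. Among the 72 insulin-positive cells the values were 0.79 and 0.69, and among the 61 outside rows D and H they were 0.69 and 0.58. By plate, Iapp with Ins2 ran between 0.33 in the 28 insulin-positive cells of EA05 and 0.95 in the 8 of EA02. The points share plates and CPM totals, and the many cells at 0 tie.

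Iapp marked insulin-positive cells but was not confined to them. In summed counts it stood at 18665 CPM in the 72 insulin-positive cells (Poisson interval 18623 to 18707) against 1105 CPM in the 357 insulin-negative cells of the 6 plates (1101 to 1110), 16.9-fold higher, or 4.07 on the log2 scale. Cell by cell, the lowest, median and highest values were 0, 17065 and 92883 CPM in insulin-positive cells and 0, 0 and 42844 CPM in insulin-negative cells. Iapp reached 20 CPM in 71 of 72 insulin-positive cells (98.6%, interval 92.5% to 100%) against 103 of 357 insulin-negative cells (28.9%, 24.2% to 33.9%). The medians lie far apart, and the ranges overlap. Iapp ranked 7 among 7826 tested genes by this ratio, of which 7.08% were 2-fold higher in insulin-positive cells and 19.7% were 2-fold apart in either direction.

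The direction was the same on every plate, and its size differed between plates. Iapp stood at 22575 CPM in insulin-positive against 1040 CPM in insulin-negative cells on EA06 (log2 4.43), at 14402 against 1063 CPM on EA07 (3.75), at 22942 against 352 CPM on EA02 (6.01), at 18145 against 3015 CPM on EA05 (2.59), at 17814 against 799 CPM on EA01 (4.47) and at 21644 against 63.7 CPM on EA03 (8.30). Without rows D and H, the insulin-positive cells of EA01 had 4583 CPM (6 cells, log2 2.50), those of EA02 12564 CPM (5 cells, 5.27) and those of EA03 11384 CPM (7 cells, 7.37). Both the insulin-positive and the insulin-negative cells thus differed between plates. Over the 6 plates the log2 ratio averaged 4.92 ± 1.99 (SD, n = 6), and 4.32 ± 1.84 without these rows. Without rows D and H it was 3.84 over all cells, and without the cells holding Gcg, Sst, Ghrl or Ppy at 1000 CPM it was 6.08.

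Cells in the higher insulin classes had more Iapp than those in the lowest. The median Iapp was 3371 CPM in the 17 cells with 1000 to 10000 CPM of insulin, 11244 CPM between 10000 and 20000, 18631 between 20000 and 40000, 18116 between 40000 and 80000, and 48942 CPM in the 14 cells above. In that last class the 9 cells of rows D and H held 46272 to 92883 CPM and the 5 others, all of EA05, held 12541 to 22530 CPM. Iapp counts per insulin count, with no length correction, had medians of 1.39, 0.76, 0.60, 0.42 and 0.28 over the same classes. Insulin is both the divisor of this ratio and the measure that sets the classes. Such a ratio falls even where Iapp and insulin are unrelated, so no finding is drawn from it. Every one of the 55 cells with at least 10000 CPM of insulin held at least 2995 CPM of Iapp.

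A few insulin-positive cells had little or no Iapp. Cell A5 of EA06 had 617 insulin counts and 0 Iapp counts. Cell G6 of EA01 had 640 insulin and 14 Iapp counts, and cell E8 of EA01 had 5117 insulin and 58 Iapp counts. All of these stood under 10000 CPM of insulin.

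**Figure D3:**
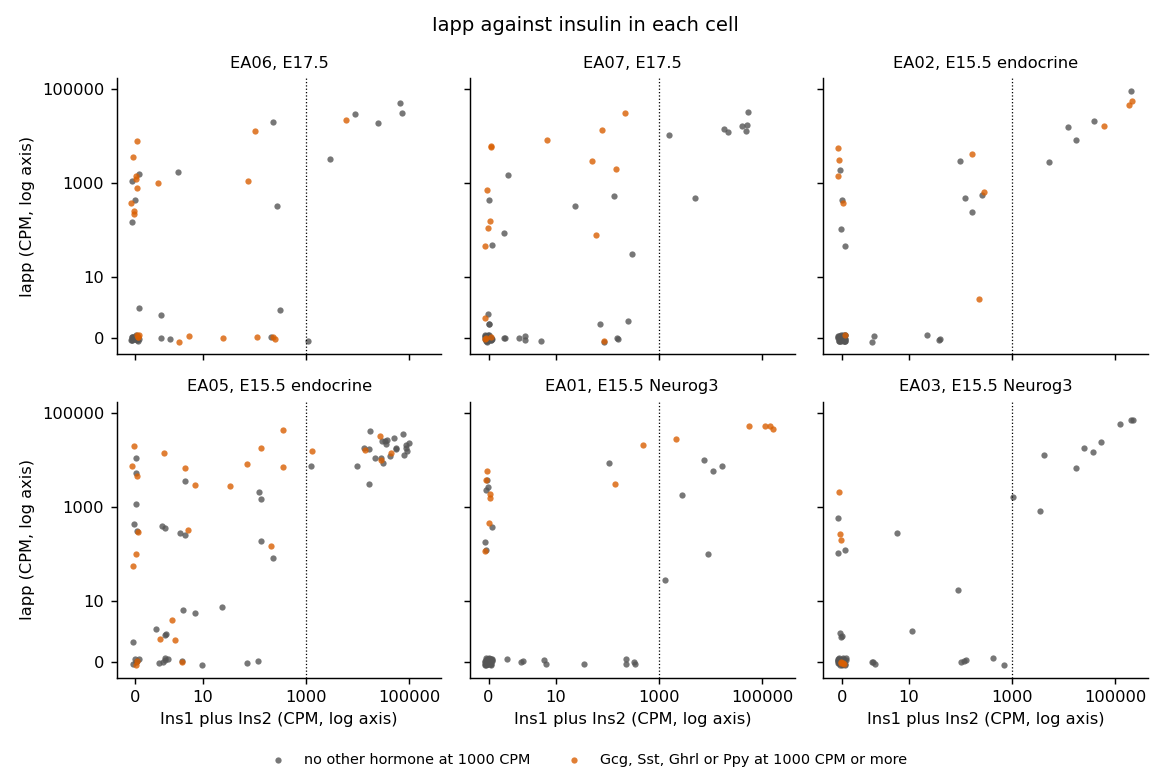
Iapp against Ins1 plus Ins2 in each cell (CPM, log axes; 0 counts drawn at 0, values between 0 and 1 CPM at 1) on the 6 plates other than duct, with cells holding another hormone at 1000 CPM in orange. The dotted line marks 1000 CPM of insulin: nearly all cells right of it have Iapp, and cells left of it split into cells at 0 and cells with up to 42844 CPM.

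Beside Iapp, granule and endoplasmic reticulum genes had the highest medians of the 7 pathway lists in insulin-positive cells. Of 7826 genes at 20 CPM or more in either class, 554 were 2-fold higher and 985, or 12.6%, 2-fold lower, with a median log2 ratio of -0.15 (scaling with edgeR's TMM moved all ratios by 0.16 and gave 708 higher and 747 lower, and DESeq2 size factors moved them by 0.18 and gave 738 and 714). Among the genes named by rule, Nnat, an imprinted gene for a small membrane protein of the endoplasmic reticulum, stood at 4221 against 96.2 CPM (5.38). G6pc2, the islet glucose-6-phosphatase subunit, stood at 712 against 13.8 CPM (5.26), and Slc2a2, the glucose transporter GLUT2, at 307 against 6.92 CPM (4.71). Ppp1r1a, an inhibitor subunit of protein phosphatase 1, stood at 651 against 20.4 CPM (4.69). Arhgap36 had 252 against 4.49 CPM (4.76), and Mapt, the microtubule protein tau, 168 against 7.73 CPM (3.76). Being higher on all 6 plates was part of the rule that named these genes.

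Of 18 measured genes of prohormone processing and the granule, 10 were 2-fold higher and 0 lower in insulin-positive cells, with a median log2 ratio of 1.38 against -0.15 over all genes. Sytl4 (granuphilin, which docks granules) stood at 472 against 24.5 CPM (4.02), the granin Scg2 at 1358 against 129 CPM (3.35), and Slc30a8, the zinc transporter of the insulin granule, at 435 against 47.3 CPM (3.07). The proinsulin-cutting proteases were higher too, Pcsk1 at 469 against 154 CPM (1.57) and Pcsk2 at 1122 against 398 CPM (1.48). Of 14 genes of the endoplasmic reticulum, 11 were higher and 0 lower (median 1.43): Pdia6, a disulfide isomerase, stood at 1445 against 264 CPM (2.43), the chaperone Hsp90b1 at 1610 against 441 CPM (1.86), and the co-chaperone Dnajc3 at 384 against 108 CPM (1.78). Of 15 measured genes of glucose sensing and secretion, 5 were higher and 0 lower (median 0.36), with Ucn3, a marker of mature beta cells in mice, at 31.9 against 1.45 CPM (2.52, and 0.65 without rows D and H).

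Of 7 measured genes of the receptors and of insulin breakdown, 2 were higher and 1 lower (median 0.50). The receptor partners Ramp1 and Ramp2, of which Ramp1 joins the calcitonin receptor to form an amylin receptor, stood at 85.3 against 35.2 CPM (1.17) and at 71.7 against 20.6 CPM (1.58), while Calcr, the calcitonin receptor itself, stayed under the threshold at 0.02 against 1.93 CPM. The insulin receptor gene Insr stood at 57.3 against 39.1 CPM (0.50). Insrr, the insulin receptor-related receptor, was lower at 94.3 against 371 CPM (-1.92).

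The regulators of the insulin genes were mixed. Of 16 measured, 2 were higher and 5 lower (median -0.83; 3 lower under TMM or DESeq2 scaling). Pdx1, a direct activator of both insulin genes, was among the higher ones at 129 against 55.7 CPM (1.14). Mafa, the activator of the adult beta cell, stayed under the threshold at 2.63 against 0 CPM. The lower ones included Pax4, needed for beta cell fate in mice (30.3 against 606 CPM, -4.11), and Myt1, a zinc finger factor of endocrine progenitors (53.5 against 155 CPM, -1.45). All 11 measured genes of early endocrine steps were lower (median -2.10), among them Neurog3 at 4.02 against 1987 CPM (-7.79), the cell cycle inhibitor Cdkn1a at 13.9 against 849 CPM (-5.50) and the transcriptional cofactor Runx1t1 at 48.6 against 500 CPM (-3.24). Outside the lists, the growth factor Mdk stood at 67.6 against 986 CPM (-3.77), the secreted antagonist Cer1 at 6.83 against 125 CPM (-3.46), the non-coding RNA Miat at 4.44 against 112 CPM (-3.63), the mucin Muc1 at 20.9 against 265 CPM (-3.39) and the microtubule regulator Stmn1 at 6.68 against 116 CPM (-3.37).

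Of 9 measured other hormone genes, 2 were higher and 4 lower (median -0.39). Npy stood at 481 against 1.76 CPM (6.17), but it reached 10 CPM in 20.8% of the insulin-positive cells only and was higher on 4 of 6 plates. Gip, an incretin, stood at 94.7 against 4.89 CPM (3.33). Ghrl stood at 1.59 against 1311 CPM (-7.64). Sst was close to level at 1731 against 1632 CPM (0.08), and at -1.59 on the log2 scale without rows D and H. Ppy stood at -0.39, and at -1.27 without these rows.

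Markers of other cells moved with these classes in places. The 10 acinar markers summed to 760 against 94.6 CPM, with 9 of 9 measured genes 2-fold higher in insulin-positive cells, and the median cell of either class stood at 0. Cell A5 of EA02 alone held 47638 CPM of them beside 5090 CPM of Ins2, 0 Ins1 counts and 2801 CPM of Iapp; the next cell of the 6 plates held 2562 CPM. Without that cell the acinar sum was 78 against 94.6 CPM, and Iapp kept a log2 ratio of 4.09. The 6 duct and progenitor markers summed to 193 against 1381 CPM, with 4 of 6 lower, and the 6 mesenchyme markers to 2.56 against 162 CPM. Vim alone held 2.46 against 129 CPM of the mesenchyme sums, and no other gene of that list reached 20 CPM in either class. The 7 endocrine markers summed to 5636 against 4951 CPM, with 1 of 7 higher.

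**Figure D4:**
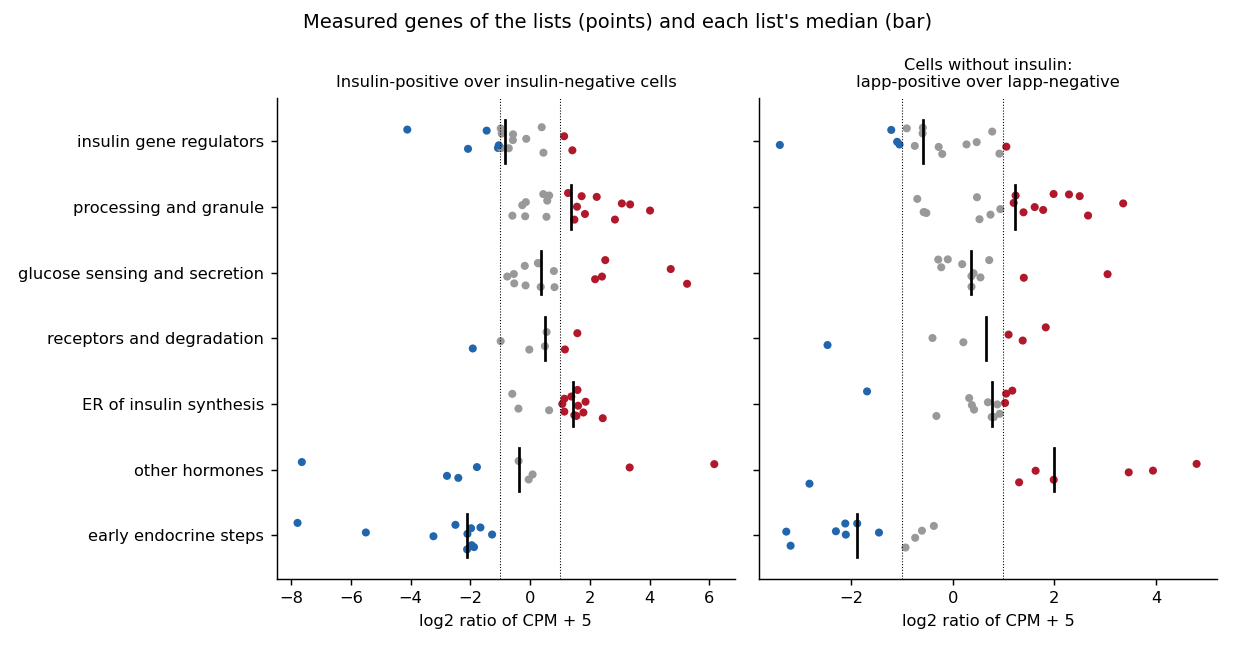
Log2 ratio of CPM + 5 for each measured gene of the 7 lists (points, red 2-fold higher and blue 2-fold lower) with the list median as a bar. Insulin-positive over insulin-negative cells are at left, and Iapp-positive over Iapp-negative cells, all insulin-negative, at right. The median of the granule list lies to the right of 0 in both (10 of 18 genes 2-fold higher in each), and that of the early endocrine list to the left.

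Among insulin-negative cells, Iapp was found above all in cells holding another hormone. Insulin-negative cells are under 1000 CPM of insulin and not all without it. Iapp stood at 524 CPM in the 243 cells with no insulin count and at 739 CPM in the 53 under 20 CPM. In the 61 with 20 to 1000 CPM of insulin it stood at 3576 CPM. Of the 357 insulin-negative cells, the 83 with Gcg, Sst, Ghrl or Ppy at 1000 CPM or more had 3704 CPM of Iapp, and 52 of them (62.7%, interval 51.3% to 73%) reached 100 CPM. In the next classes Neurog3 and Fev count as present at 20 CPM or more, so cells without them can hold lower levels. Among insulin-negative cells with none of these hormones at 1000 CPM, the 63 with Fev and without Neurog3 had 689 CPM. Of these, 24 cells (38.1%, 26.1% to 51.2%) reached 100 CPM. The 25 with neither gene had 600 CPM, with 8 cells (32%, 14.9% to 53.5%) at 100 CPM. Of the 7960 Iapp counts in those 25 cells, 5818 lay in cell G12 of EA06, and the median cell stood at 0. The 47 cells with both Neurog3 and Fev had 87.3 CPM, with 5 cells (10.6%, 3.55% to 23.1%). The 139 cells with Neurog3 only had 19.6 CPM, with 5 cells (3.60%, 1.18% to 8.19%). Median depths of these classes lay between 505957 and 617978 counts per cell.

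This order held in part from plate to plate. In cells with another hormone, Iapp stood at 1570 CPM on EA06, 4158 on EA07, 1951 on EA02, 6441 on EA05, 4463 on EA01 and 347 on EA03, against 126, 28.5, 3.62, 1.08, 4.28 and 3.40 CPM in cells with Neurog3 only on the same plates. It was higher in the hormone cells on all 6 plates. In cells with Fev only, Iapp stood at 564 CPM on EA06, 57.6 on EA07, 618 on EA02, 1209 on EA05, 907 on EA01 and 152 on EA03.

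Among the hormones, Iapp reached 100 CPM in 20 of 23 insulin-negative Gcg cells (4770 CPM summed), in 20 of 27 Sst cells (7363 CPM), in 16 of 31 Ghrl cells (746 CPM) and in 11 of 22 Ppy cells (2315 CPM), where a cell with several hormones counts in each. In 10 insulin-negative cells Iapp reached 10000 CPM, where 55 of the 65 cells at that Iapp level were insulin-positive. Of these 10 cells, 7 held Sst, 1 held Gcg and 2 held none of these hormones at 1000 CPM. No insulin count was read in 2 of the 10. The highest, cell F2 of EA05, had 30969 Iapp counts with 14335 CPM of Gcg and 356 CPM of insulin. Cell E11 of EA05 had 11952 Iapp counts, 46783 CPM of Sst and no insulin count.

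**Figure D5:**
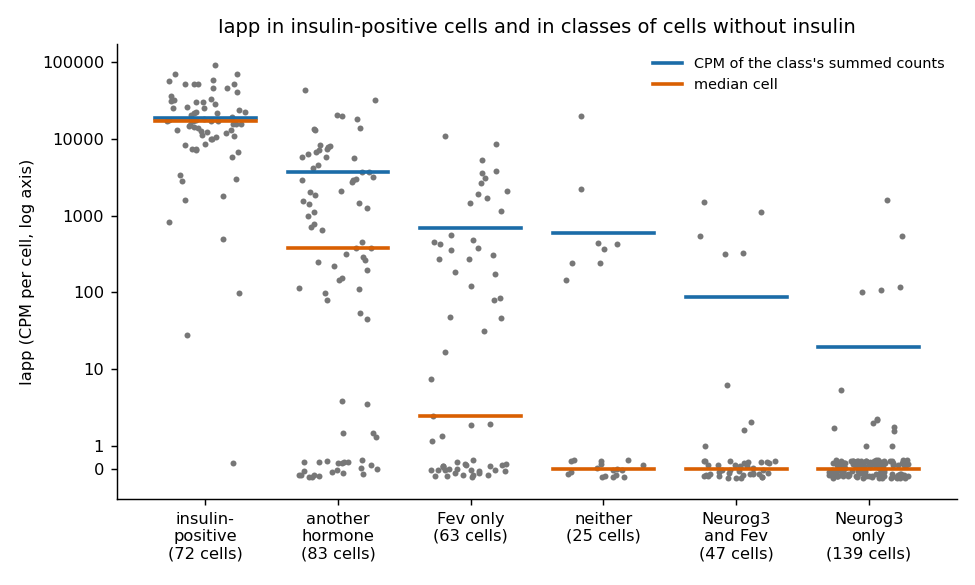
Iapp per cell (CPM, log axis; 0 counts drawn at 0, values between 0 and 1 CPM at 1) in insulin-positive cells and in 5 classes of insulin-negative cells, with the CPM of summed counts (blue) and the median cell (orange). The summed level is 18665 CPM in insulin-positive cells, 3704 CPM with another hormone and 19.6 CPM with Neurog3 only.

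Set against insulin-negative cells under 100 CPM of Iapp (263 cells), the 94 insulin-negative cells at 100 CPM or more had higher levels of granule and hormone genes. Of 7927 genes, 584 (7.37%) were 2-fold higher and 608 (7.67%) 2-fold lower, with a median of -0.02. Of 18 granule genes, 10 were higher and 0 lower (median 1.22), with Scg2 at 393 against 33.9 CPM (3.35), Slc30a8 at 133 against 16.7 CPM (2.66) and Sytl4 at 69.8 against 8.23 CPM (2.50). Of 7 other hormone genes, 6 were higher and 1 lower (median 1.99), with Sst at 5630 against 197 CPM (4.80), Gast at 562 against 31.9 CPM (3.94) and Gcg at 5492 against 493 CPM (3.46). For Gcg the log2 ratio was 6.09 without rows D and H and 1.03 without the cells of another hormone, and for Sst it was 2.29 without those cells. Of 11 early endocrine genes, 0 were higher and 7 lower (median -1.88), with Btbd17 at 24.2 against 277 CPM (-3.27), Neurog3 at 281 against 2600 CPM (-3.19) and the Notch pathway gene Hes6 at 103 against 524 CPM (-2.29).

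The other lists had medians nearer to that of all genes. Of 14 genes of the endoplasmic reticulum, 3 were higher and 1 lower (median 0.78), with Spcs3 at 136 against 57.6 CPM (1.17), Dnajc3 at 178 against 83.1 CPM (1.05) and the stress factor Ddit3 at 13.8 against 55.2 CPM (-1.68). Of 11 glucose genes, 2 were higher (median 0.37), G6pc2 at 48.1 against 1.42 CPM (3.05) and Abcc8, a subunit of the ATP-sensitive potassium channel, at 1021 against 383 CPM (1.40). Of 15 regulators, 1 was higher and 4 were lower (median -0.59), with Pax4 at 71.3 against 798 CPM (-3.40). Of 6 receptor genes, 3 were higher and 1 lower (median 0.66), with Ramp1 at 80.4 against 19 CPM (1.83) and Insrr at 82.2 against 474 CPM (-2.46).

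Outside the lists, Rbp4, a retinol carrier, stood at 6926 against 1171 CPM (2.56), the amino acid transporters Slc7a2 at 213 against 25.5 CPM (2.84) and Slc16a10 at 186 against 26.3 CPM (2.61), and Papss2, which makes the sulfate donor, at 193 against 28.9 CPM (2.55). The insulin genes themselves had 19.1 (Ins1) and 32.5 CPM (Ins2) in the Iapp-positive cells and 6.27 and 15.8 CPM in the others, both held under 1000 CPM by the choice of these cells. Markers of mesenchyme summed to 188 against 153 CPM, with 3 of 4 measured genes higher. The higher ones reached 20 CPM in few of the 94 Iapp-positive cells: Col1a1 in 1, Col1a2 in 4 and Col3a1 in 2. The remaining gene, Vim, stood at 73 against 149 CPM (-0.98).

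The genes whose levels followed Ins2 most closely over cells were ranked by Spearman correlation within each of the 6 plates, averaged, over 7021 genes and 429 cells. Ins1 came first at 0.74 (0.64 to 0.79 by plate), then Ppp1r1a at 0.64, Slc2a2 at 0.59, G6pc2 at 0.58, Iapp at 0.57, Scg2 at 0.55, Slc30a8 at 0.54 and Sytl4 at 0.53. For Iapp the order was Ppp1r1a at 0.68 (0.52 to 0.75), Scg2 at 0.66, Manf, a secreted protein of the endoplasmic reticulum, at 0.61, Papss2 at 0.60, Pcsk2 at 0.59, G6pc2 at 0.59, Scg3 at 0.57 and Ins2 at 0.57. Ins1 was thus the closest gene to Ins2, while 7 genes stood before Ins2 for Iapp. Without rows D and H, Ins1 remained first for Ins2 (0.69), and Ins2 stood at rank 13 for Iapp (0.51).

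At E17.5 all 3 genes stood lower than on the E15.5 endocrine plates. Ins1 had 912 CPM at E17.5 and 3095 CPM on the endocrine plates (log2 -1.76). Ins2 had 2144 and 7016 CPM (-1.71), and Iapp 2965 and 6039 CPM (-1.03), while 3.66% of all tested genes were 2-fold lower and the median of all genes was 0.19. The 2 endocrine plates did not give the same answer. Against EA05, EA06 gave -1.78 for Ins1, -2.14 for Ins2 and -1.10 for Iapp, and EA07 gave -2.11, -2.05 and -1.70. Against EA02, EA06 gave -1.09 for Ins1, -0.82 for Ins2 and 0.58 for Iapp, and EA07 gave -1.42, -0.73 and -0.03. The lower values against EA02 rested on its 6 cells of rows D and H: without them EA06 gave 0.37 for Ins1, 0.60 for Ins2 and 1.52 for Iapp, and EA07 gave 0.04, 0.69 and 0.92. Lower levels of the 3 genes at E17.5 thus held against EA05 and not against EA02 without these rows.

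Within insulin-positive cells, summed counts lay closer and the median cells of Ins1 did not. The 15 insulin-positive cells at E17.5 had 7787 CPM of Ins1, 18415 of Ins2 and 17567 of Iapp, against 12414, 28135 and 18864 CPM in the 36 of the endocrine plates, with log2 ratios of -0.67, -0.61 and -0.10. Without rows D and H these were -0.43, -0.46 and 0.01. The median insulin-positive cell had 1142 CPM of Ins1, 20423 of Ins2 and 17025 of Iapp at E17.5, against 10660, 28540 and 17185 CPM on the endocrine plates. Insulin-positive cells were 11.6% of cells at E17.5 (interval 6.66% to 18.5%) against 22.9% on the endocrine plates (16.6% to 30.3%). Embryonic day, genotype, plate code and plate differ together here and cannot be told apart.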

How the data were processed

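The deposited values are unnormalized counts, 1 whole number for each gene in each cell. FastQC, STAR and HTSeq with the mm10 build are named, per the submitters' processing notes; for versions, annotation, strand setting and read length the sources used here give nothing. All 495 cells passed 50000 counts and 1000 genes, no cell repeated another's counts, and no doublet caller was run. CPM is 1000000 times counts over the cell's or group's total. Log2 ratios of summed counts used a pseudocount of 5 CPM, which understates low genes; genes at 20 CPM or more in either class were tested and called at 2-fold. Levels have exact Poisson, shares Clopper-Pearson intervals, at 95%. Poisson intervals treat reads without molecular identifiers as independent counts and leave out the spread between cells, so they are too narrow for molecules. Clopper-Pearson intervals cover the counting of cells only. No test was made, since each plate is 1 sample. Ratios were checked on simulated counts.

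Members and gene lists were chosen with earlier results of these data known. Named genes are the 8 in each direction with the largest ratio (50 CPM or more, at 10 CPM in 25% of cells of the higher class, same side on every plate with 5 cells of each class), up to 3 per list, and the 8 most similar to Ins2 and to Iapp; others are added to complete a list. Alternatives used edgeR 4.0.16 (TMM) and DESeq2 1.42.0 size factors on the summed counts. A planned length from uniquely mappable genome windows was replaced by transcript windows. Other tools were Python 3.11.15, pandas 2.3.3, scipy 1.17.1 and R 4.3.3. Some listed genes are counted but not reported here by name.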

Additional observations from a re-analysis of the deposited data

How the results depend on the processing

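Of 224 values recomputed under other settings, 200 stayed close to the reported value (gene counts within 1.5 times, shares within their interval, log2 ratios within 1 SD over plates or plate pairs), 23 moved and 1 changed sign; the cause was not tested. Insulin-positive cells (16.8%) were 26.6% at 100 CPM and 12.8% at 10000 CPM. The Ins1 share (32.2%) was 17.3% with GENCODE transcript lengths. Between insulin-positive and insulin-negative cells (554 genes higher, 985 lower), a pseudocount of 20 CPM gave 289 and 435, genes at 100 CPM gave 198 and 195, no gene filter gave 1651 lower, and insulin at 100 CPM gave 585 lower. Between Iapp-positive and Iapp-negative cells (584 and 608), the pseudocount gave 231 and 270, genes at 100 CPM gave 133 and 115, no filter gave 943 and 1062, Iapp at 1000 CPM gave 962 lower, and leaving out cells of another hormone gave 935 and 1047 and put Iapp against insulin at 6.08 on the log2 scale. Cells with 300000 counts and 2000 genes put Ins1 in rows D and H at 7.93, from EA01 alone.

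Leaving out 1 plate at a time gave insulin-positive cells of 12.8% to 17.9%, an Ins1 share of 28.7% to 33.8%, and Iapp against insulin of 3.84 to 4.71. Gene counts were 538 to 708 higher and 939 to 1201 lower for insulin, and 577 to 847 and 684 to 744 for Iapp. The E17.5 ratio was -1.98 to -1.29 for Ins1, -2.08 to -0.76 for Ins2 and -1.46 to 0.21 for Iapp, which turned to 0.21 without EA05. Rows D and H gave 5.90 to 7.09 for Ins1, 5.72 to 6.28 for Ins2 and 4.75 to 5.43 for Iapp. Settings that leave out the acinar-rich cell or cells of another hormone, other transcript lengths, single plates without rows D and H and the sets by Ins1 share were chosen after seeing the data. No paired analysis was possible because the plates carry no shared replicate numbers and no test was made. Single plates, unnamed animals and PCR reads limit every value to a description of these plates.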
